A study of Mus musculus with 9 samples.

Results

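SR proteins and heterogeneous nuclear ribonucleoproteins (hnRNPs) are the main families of RNA-binding proteins that decide which exons and splice sites of a pre-mRNA are used. The genes described here are the protein-coding genes named Srsf followed by a number, or Hnrnp, in the deposited table of mouse embryonic fibroblasts. The rule found 30 genes of 16428, 10 SR and 20 hnRNP genes, and all 30 passed the filter on low values. GENCODE M21 annotates 11 SR and 20 hnRNP genes as protein-coding, and Srsf12 was not analysed here. The study asked what loss of the arginine methyltransferase CARM1, whose substrates include histones and splicing proteins, changes in these connective tissue cells of the embryo.

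Poly(A) RNA of 9 libraries was sequenced, 3 per group. All groups, the WT group included, carried the genotype CARM1f/f ER-Cre, a floxed Carm1 gene with a recombinase that 4-hydroxytamoxifen (4-OHT) switches on. KO cells received 2 uM 4-OHT for 6 days, CARM1i cells received 1 uM of the CARM1 inhibitor TP-064 for 6 days, and WT cells had no treatment. No group received 4-OHT without the floxed gene and none is labelled as vehicle, so the deletion and 4-OHT cannot be told apart, nor can the inhibitor and any vehicle.

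SR proteins bind exonic enhancers through RNA recognition motifs, and their arginine and serine rich tails, phosphorylated by SRPK and CLK kinases, recruit the spliceosome to nearby splice sites. Many hnRNPs bind silencers and work against exon inclusion, and the balance between both families sets the splicing of many exons. Most SR genes and several hnRNP genes limit their own protein by including a poison exon or retaining an intron, which sends the transcript to nonsense-mediated decay.

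All values are normalized read counts, reads per gene divided by the size factor of the library. Recovered totals were 28657018 to 35842771 reads per library, and each of the 30 genes had a mean of at least 690 normalized counts over the 9 libraries. The first principal component, with 42.7% of the variance, separated the groups. On the third (9.58%) CARM1i replicate 3, at -19.5, lay away from the 11 and 11.7 of its group. WT replicate 3, at 10.3 there, also lay away from the -8.65 and -5.68 of its group. Carm1, counted over the whole gene, measured 794, 711 and 770 in KO, 1112, 1072 and 986 in CARM1i and 1079, 1143 and 1091 in WT libraries. Against WT its log2 fold change was -0.54 ± 0.06 in KO cells (limma, adjusted p = 5.49e-07) and -0.06 ± 0.06 in CARM1i cells (adjusted p = 0.496). Reads from inside and outside the floxed exons are pooled in this count, which therefore does not measure the deletion itself. Of the fibroblast markers listed, all 9 were in the table and none was at 0, with summed values of 188777 to 200502 in KO, 222192 to 246699 in CARM1i and 255099 to 264493 in WT libraries, although Lum measured only 5.38, 5.77 and 6.74 on average in KO, CARM1i and WT. The other lists summed to 292 to 334, 294 to 323 and 253 to 318 for 4 macrophage markers, and to 243 to 294, 234 to 263 and 166 to 213 for 4 endothelial markers in KO, CARM1i and WT. For the epithelial marker Krt18 they were 91.9 to 126, 32.4 to 43.8 and 23.3 to 48, and for 4 neural markers 452 to 484, 614 to 692 and 759.5 to 859. The remaining listed markers, Ptprc, Adgre1, Epcam, Cdh1, Krt8, Krt14 and Rbfox3, were not analysed here.

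The members lie on 16 chromosomes of mm10, and some are close neighbours: Hnrnpd and Hnrnpdl lie 54.6 kb apart on chromosome 5, Hnrnpll and Srsf7 138 kb apart on chromosome 17, Hnrnpa0 and Hnrnpk 263 kb apart on chromosome 13, and Srsf10 and Hnrnpr 441 kb apart on chromosome 4. Because many members moved together, promoters are shown for 2 SR and 2 hnRNP genes among those that fell most in KO cells, and for the 2 hnRNP genes that rose in a comparison with WT. Each sequence is the 150 bases before the start of the RefSeq transcript (GRCm38.p6), read 5′ to 3′ on the strand of the gene. Capitals mark matches, on either strand, to 5 short motifs searched. They were the E-box CACGTG, the cAMP response core TGACG, the ETS-type CCGGAAG, the nuclear respiratory factor type GCGCATGC and the YY1-type AAGATGGC, no 2 of which overlapped in the stretches shown. A TGACG on the other strand reads CGTCA, and there the nuclear respiratory factor type reads GCATGCGC.
Srsf1, chr11:88047223-88047372, plus strand: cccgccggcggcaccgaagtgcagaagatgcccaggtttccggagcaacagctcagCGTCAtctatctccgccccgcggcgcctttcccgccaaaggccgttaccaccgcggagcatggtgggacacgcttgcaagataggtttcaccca
Srsf7, chr17:80207306-80207455, minus strand: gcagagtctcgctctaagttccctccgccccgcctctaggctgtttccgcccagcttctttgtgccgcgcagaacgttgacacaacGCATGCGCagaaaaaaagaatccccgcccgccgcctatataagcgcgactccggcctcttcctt
Hnrnpr, chr4:136310792-136310941, plus strand: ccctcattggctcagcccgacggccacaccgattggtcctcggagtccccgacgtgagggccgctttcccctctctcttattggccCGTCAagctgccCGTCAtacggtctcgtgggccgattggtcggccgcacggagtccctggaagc
Hnrnph1, chr11:50376840-50376989, plus strand: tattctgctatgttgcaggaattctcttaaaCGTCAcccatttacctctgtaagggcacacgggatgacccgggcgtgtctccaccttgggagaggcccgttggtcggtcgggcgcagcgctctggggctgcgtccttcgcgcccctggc
Hnrnph2, chrX:134601029-134601178, plus strand: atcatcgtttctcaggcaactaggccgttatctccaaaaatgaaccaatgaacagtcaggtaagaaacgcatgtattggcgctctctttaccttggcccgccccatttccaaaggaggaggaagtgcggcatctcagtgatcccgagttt
Hnrnpa3, chr2:75659109-75659258, plus strand: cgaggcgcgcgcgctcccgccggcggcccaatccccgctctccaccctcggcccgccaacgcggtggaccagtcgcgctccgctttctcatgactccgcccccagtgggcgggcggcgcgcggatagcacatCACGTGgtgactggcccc

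In these stretches Hnrnpr held 2 matches to TGACG, while Srsf1 and Hnrnph1 held 1 each. Srsf7 held GCGCATGC, Hnrnpa3 held CACGTG, and Hnrnph2 held none of the motifs. The stretch of Srsf3, which fell more than Srsf1 in KO cells but is not shown, held 2 matches to TGACG. Of the 30 genes, 28 had at least 1 RefSeq window of 300 bases (250 before and 50 after the start), 40 windows in all. TGACG was present in 23 of the 40 windows, 57.5%, against 20.8% of all 32851 windows and 30.6% of the 12569 windows of tested coding genes. It stood in windows of 7 of 10 SR genes and 11 of 18 hnRNP genes. Of the genes printed above, Srsf1, Hnrnpr, Hnrnph1, Hnrnph2 and Hnrnpa3 had TGACG in a window, and Srsf7 did not. The window of Hnrnph2 also held CACGTG. The lack of TGACG in the printed sequences of Hnrnph2 and Hnrnpa3 therefore holds only for those shorter stretches. CCGGAAG was in 25.0% of member windows against 8.86% of all windows and 17.1% of those of tested coding genes, with 6 of its 10 member windows at SR genes. CACGTG was in 12.5%, GCGCATGC in 7.5% and AAGATGGC in 2.5% of member windows, against 9.76%, 5.12% and 4.34% of windows of tested coding genes and 7.15%, 2.71% and 2.75% of all windows. Windows of 1 gene can overlap, so they are not independent, and a match is a description of the letters.

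The first comparison set KO against WT cells. All 10 SR genes fell in KO cells, with a median log2 fold change of -0.33, and 16 of 20 hnRNP genes fell, with a median of -0.22. One hnRNP gene, Hnrnph2, rose, and Hnrnpa3, Hnrnpc and Hnrnpll did not pass the test. Over all 14560 genes tested the median was -0.00, 20.5% were called lower and 21.4% higher. Among the 7101 genes at least as abundant as the least abundant member, 26.2% were called lower. The KO and WT libraries did not overlap, KO lower, for 28 of the 30 members, against 25.9% of all genes tested. In bulk RNA, less RNA per cell and fewer cells that express a gene cannot be told apart. Calls are limma tests with a Benjamini-Hochberg adjusted p under 0.05 over all genes tested, and fold changes are on the log2(value + 1) scale with their SE.

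Summed over the family, the SR genes gave 48270.5 ± 189 normalized counts in KO cells and 59782 ± 1803 in WT cells (SD, n = 3 each), so that the KO sum was 80.7% of the WT sum. The hnRNP genes gave 138684 ± 367 in KO and 165844 ± 6620.4 in WT cells, a KO sum of 83.6%. The WT libraries varied more among themselves than the KO libraries: their SR sums were 61465, 60001 and 57879, against 48091, 48253 and 48467 in KO libraries. The share of a library taken by SR transcripts was 0.155% in KO and 0.195% in WT cells, and that of hnRNP transcripts 0.446% in KO and 0.54% in WT cells.

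Srsf7 and Srsf3 had the most negative log2 fold changes of the SR genes, and Srsf1 and Srsf2 followed with values that differed by less than their SE. Srsf7 (ENSMUSG00000024097; mm10, chromosome 17, 80200080 to 80207307), which carries a zinc knuckle beside its RNA recognition motif, had 2177, 2293 and 2202.5 normalized counts in KO libraries, against 3122, 3208 and 3049.5 in WT libraries. Every KO library lay below every WT library, and the KO mean was 71.1% of the WT mean (-0.49 ± 0.04, adjusted p = 5.08e-09). Srsf3 (ENSMUSG00000071172; chromosome 17, 29032628 to 29043373), the smallest protein of the family, had 7115, 6944 and 7011 in KO and 9974, 9844 and 9379 in WT libraries. The groups were far apart compared with the spread inside each (-0.47 ± 0.03, adjusted p = 1.89e-09). Srsf1 (ENSMUSG00000018379; chromosome 11, 88047373 to 88053755), the founding SR protein and an activator of exon inclusion, had 7735, 7888 and 7975.5 in KO and 10845, 10267 and 9786 in WT libraries. Its KO mean was 76.4% of the WT mean (-0.39 ± 0.04, adjusted p = 1.21e-07).

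Srsf2 (ENSMUSG00000034120; chromosome 11, 116849901 to 116853094), a nuclear speckle protein, had 6717, 6819.6 and 6954 normalized counts in KO and 9058, 9025 and 8575 in WT libraries, again without overlap (-0.38 ± 0.04, adjusted p = 1.76e-07). Srsf10, which turns into a splicing repressor when dephosphorylated, fell to 2432 ± 34.4 in KO cells, against 3139.4 ± 168 in WT cells (SD, n = 3 each; -0.37 ± 0.04). Srsf9, a close relative of Srsf1, fell by less, with -0.29. The 3 members built alike with a pair of RNA recognition motifs and a long tail, Srsf4, Srsf5 and Srsf6, had log2 fold changes of -0.25, -0.10 and -0.21. Srsf11, which contacts the splice site factor U2AF, had -0.14. Srsf5 (ENSMUSG00000021134; chromosome 12, 80945504 to 80950507) moved least, with 8955, 8709.7 and 8787 in KO and 9673, 9407 and 9254 in WT libraries. Its groups did not overlap and the adjusted p was 0.0141, but the call was lost without KO replicate 2 (adjusted p = 0.05775) or without WT replicate 1 (adjusted p = 0.0725).

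**Figure D1:**
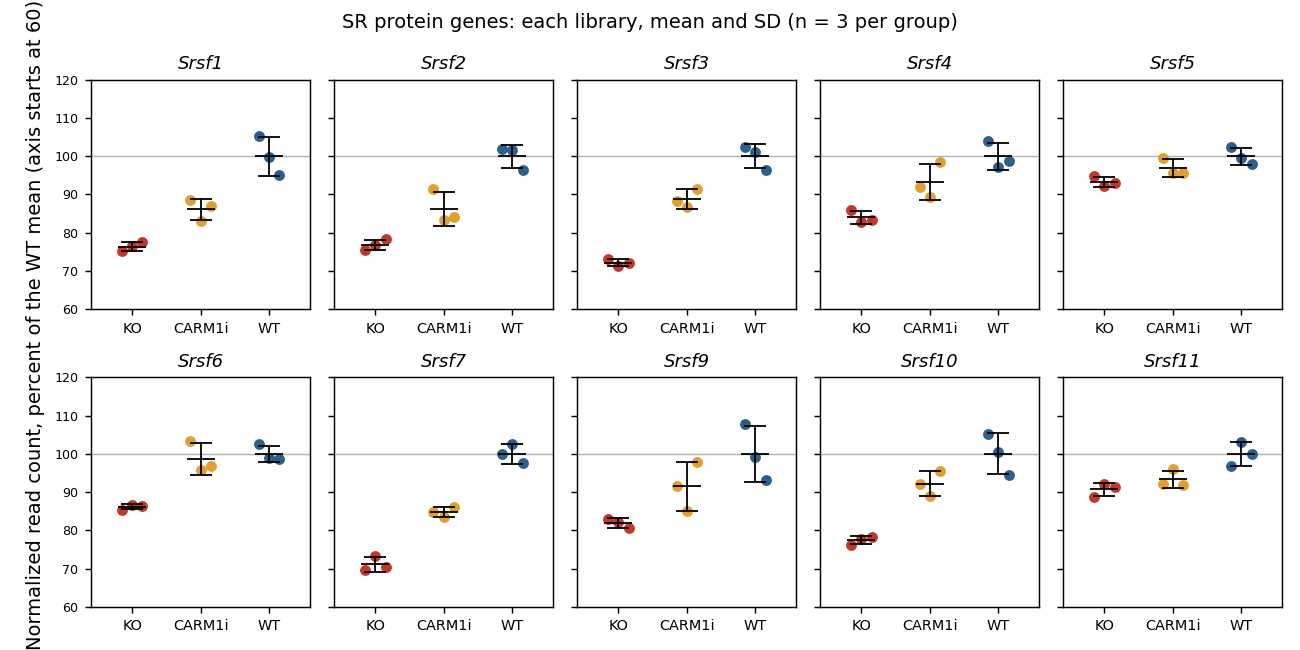
Each panel is 1 SR gene, and the vertical axis is the normalized read count of each library as a percentage of the WT mean, on a linear axis that starts at 60. Points are libraries, bars the mean and SD of the 3 KO, 3 CARM1i and 3 WT libraries; Srsf7 stood at 71.1% in KO and 84.8% in CARM1i, while Srsf5 stood at 93.4% and 96.9%.

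Among the hnRNP genes, Hnrnpr, Hnrnph1 and Hnrnpa2b1 had the most negative log2 fold changes. Hnrnpr (ENSMUSG00000066037; chromosome 4, 136310942 to 136359447), a relative of Syncrip known for binding mRNAs in the axons of motor neurons, had 1856.5, 1924 and 1774 normalized counts in KO and 2906, 2839 and 2744 in WT libraries. No KO library came near the lowest WT library, and its log2 fold change was the most negative of the 30 genes, though within the SE of that of Hnrnph1 (-0.61 ± 0.04, adjusted p = 1.61e-09). Hnrnph1 (ENSMUSG00000007850; chromosome 11, 50376990 to 50386528), which binds runs of G in exons and introns, had 6536.6, 7104 and 6493 in KO and 10313, 10398 and 9684 in WT libraries, a KO mean of 66.2% of WT (-0.59 ± 0.05, adjusted p = 6.19e-09). Hnrnpa2b1 (ENSMUSG00000004980; chromosome 6, 51460932 to 51469894), a splicing repressor that also sorts mRNAs, had 8288, 8392 and 8023 in KO and 12238, 11743 and 10729 in WT libraries (-0.49 ± 0.04, adjusted p = 4.87e-08). The WT libraries of this gene spread widely, yet all lay above the KO libraries.

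Of the A/B branch, Hnrnpa1 (ENSMUSG00000046434; chromosome 15, 103240432 to 103246692), the best known repressor of exon inclusion, had 11446, 11434.5 and 11516 in KO and 14434, 14984 and 13655 in WT libraries (-0.32 ± 0.03, adjusted p = 4.41e-07). Hnrnpa0 fell by 0.32 and Hnrnpab, placed here by its name alone, by 0.29 on the log2 scale. Hnrnpa3 had -0.09 ± 0.04 (limma, adjusted p = 0.0758, 0.0426 without KO replicate 3 and 0.0344 when rescaled to a common total). Of the D branch, which binds AU-rich elements of unstable mRNAs, Hnrnpd (ENSMUSG00000000568; chromosome 5, 99955935 to 99978938) had 1424, 1440.5 and 1376.5 in KO and 1973, 1814 and 1767.5 in WT libraries (-0.39 ± 0.05, adjusted p = 2.58e-06). Its neighbour and paralogue Hnrnpdl had -0.41 ± 0.04 (adjusted p = 1.05e-07), so that both fell to a similar extent, and their ratio was 0.261 to 0.267 in KO and 0.258 to 0.262 in WT libraries.

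Hnrnpk (ENSMUSG00000021546; chromosome 13, 58391142 to 58403343), a KH domain protein that binds poly(C), had 24122, 23976 and 23919 in KO and 27076, 26982 and 26071 in WT libraries, the highest counts of the 30 genes (-0.15 ± 0.03, adjusted p = 0.000207). Hnrnpu, a scaffold protein of the nuclear matrix and the next most abundant by count, had -0.21 ± 0.03. Hnrnpl, which binds CA repeats, had -0.35 ± 0.04, whereas its paralogue Hnrnpll, known from the splicing of a surface phosphatase in lymphocytes, had -0.07 ± 0.04 (adjusted p = 0.152). The remaining members that fell were Hnrnph3 (-0.22), Hnrnpm (-0.19), Hnrnpf (-0.18), Hnrnpul2 (-0.16) and Hnrnpul1 (-0.09). The Hnrnpul1 call, with adjusted p = 0.0371, was lost without any 1 KO library and without WT replicate 1 or 2 (adjusted p = 0.0553 to 0.163). Hnrnpc, which binds U tracts and keeps U2AF from cryptic exons, had -0.10 ± 0.04 (adjusted p = 0.0595). The limma test called it without CARM1i replicate 2, CARM1i replicate 3 or WT replicate 3 (adjusted p = 0.0122 to 0.0405). It was also called with only the KO and WT libraries in the fit (adjusted p = 0.0141) and when rescaled to a common total (adjusted p = 0.0247).

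**Figure D2:**
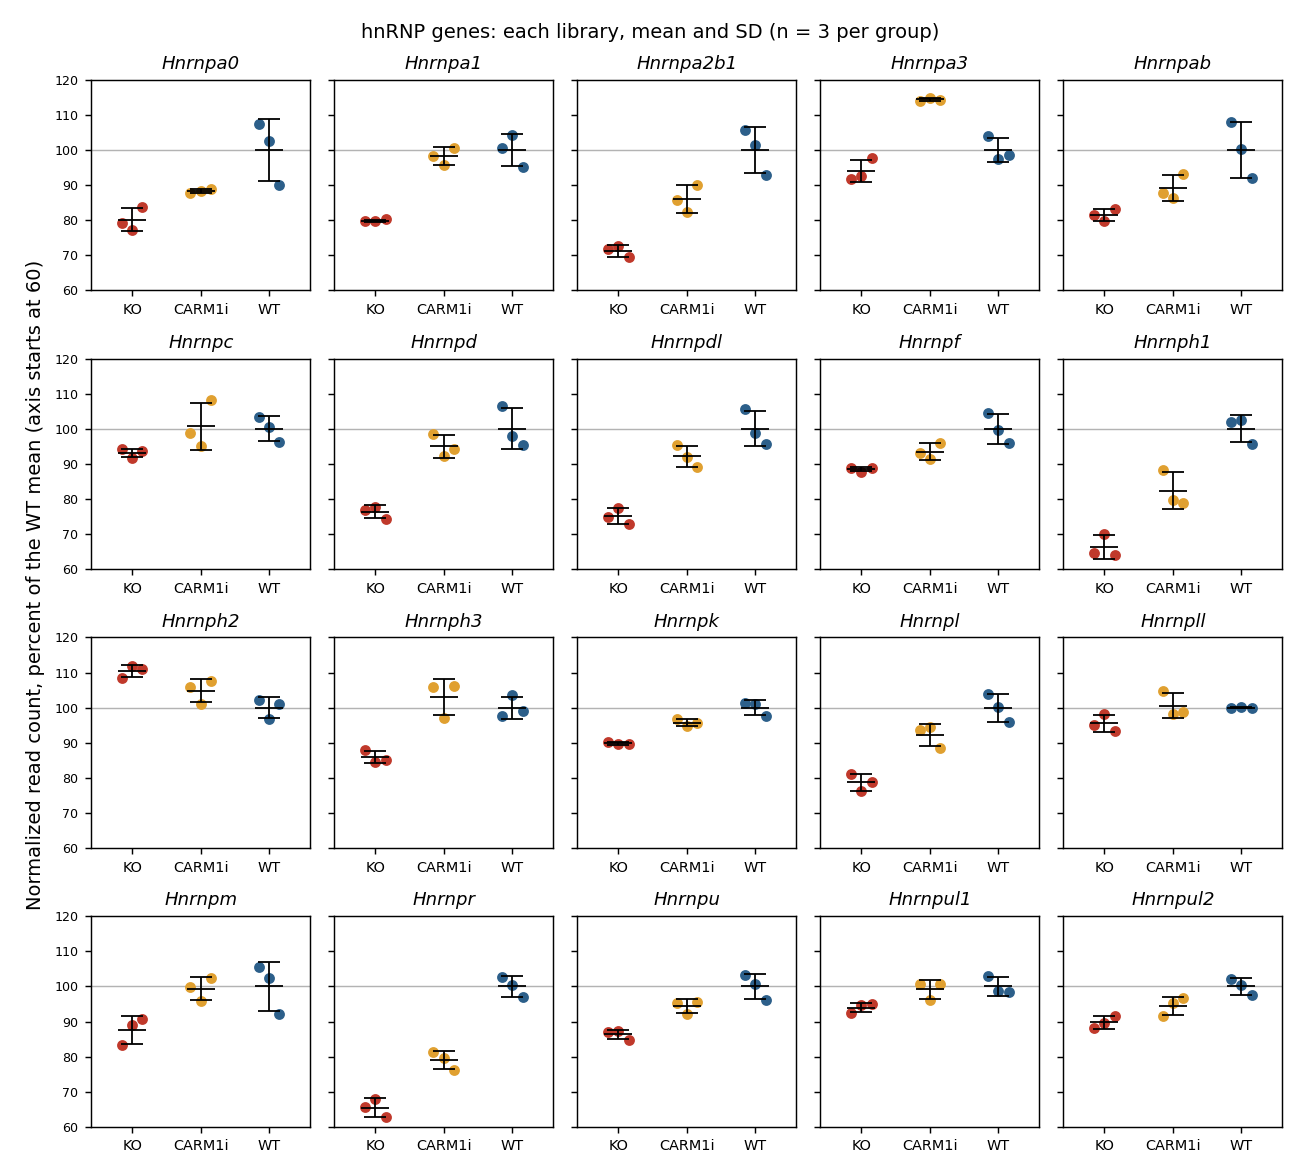
Each panel is 1 hnRNP gene, with the normalized read count of each library as a percentage of the WT mean on a linear axis that starts at 60. Points are libraries, bars the mean and SD of the 3 KO, 3 CARM1i and 3 WT libraries; Hnrnpr and Hnrnph1 stood at 65.4% and 66.2% in KO, Hnrnph2 at 110% in KO and Hnrnpa3 at 114% in CARM1i.

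Hnrnph2 was the exception in KO cells, and it is described here because its values were seen to go the other way. It encodes a protein closely related to Hnrnph1 and lies on the X chromosome (ENSMUSG00000045427; chromosome X, 134601179 to 134607060). It had 3804, 3921 and 3891 normalized counts in KO and 3583, 3389.5 and 3542 in WT libraries, with every KO library above every WT library (0.14 ± 0.04, adjusted p = 0.00329). Hnrnph1 fell in the same libraries, and the ratio of Hnrnph2 to Hnrnph1 was 0.582, 0.552 and 0.599 in KO, 0.414, 0.439 and 0.472 in CARM1i and 0.347, 0.326 and 0.366 in WT libraries. The groups did not overlap in this ratio, which was not tested. Between KO and each other group this had to be so, because both genes already lay apart there, in opposite directions. Of the paralogue pairs, Hnrnpll to Hnrnpl had ratios of 0.395 to 0.435 in KO, 0.35 to 0.377 in CARM1i and 0.324 to 0.351 in WT libraries.

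Proliferation markers moved beside these results. All 10 listed fell in KO cells, with a median of -1.25, among them Top2a (topoisomerase, -1.41), Ccna2 (cyclin A, -1.50) and Kif11 (a spindle motor, -1.46). All 10 also fell in CARM1i cells, with a median of -0.49, and all were higher in CARM1i than in KO cells, with a median of 0.81. Their summed values were 21575 to 22154.5 in KO, 34319 to 36962 in CARM1i and 46746 to 48574 in WT libraries, and none was at 0. The largest change of a member in KO cells, -0.61 for Hnrnpr, lay near the smallest of these markers, -0.60 for Pcna. The part of proliferation in the fall of the SR and hnRNP genes was not tested.

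The second comparison set CARM1i against WT cells. The falls were smaller: 4 of 10 SR genes (Srsf1, Srsf2, Srsf3 and Srsf7) and 7 of 20 hnRNP genes fell, and Hnrnpa3 rose. The other 6 SR and 12 hnRNP genes did not pass the test. The medians were -0.12 for the SR and -0.08 for the hnRNP genes, against -0.00 for all genes tested, of which 8.59% were called lower and 10.5% higher. Of the 7101 abundant genes defined above, 11.5% were called lower. All 10 SR genes had a negative log2 fold change, from -0.24 for Srsf7 to -0.02 for Srsf6, and 15 of 20 hnRNP genes did. The CARM1i libraries lay below the WT libraries without overlap for 14 of the 30 genes, against 16.7% of all genes tested. This comparison shares its WT libraries with the first.

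Srsf7 had 2651, 2611 and 2689.8 normalized counts in CARM1i libraries, against the 3122, 3208 and 3049.5 of WT libraries, a mean of 84.8% (-0.24 ± 0.04, adjusted p = 0.000139). Srsf2 had 8119, 7394.5 and 7463.5 in CARM1i and 9058, 9025 and 8575 in WT libraries (-0.22 ± 0.04, adjusted p = 0.00042). Srsf1 had 9108, 8563 and 8952 in CARM1i libraries, all below the lowest WT library at 9786 (-0.21 ± 0.04, adjusted p = 0.000414). Srsf3 had 8597, 8427.6 and 8909 in CARM1i and 9974, 9844 and 9379 in WT libraries (-0.17 ± 0.03, adjusted p = 0.00103). Srsf10, Srsf9, Srsf4 and Srsf11 had -0.12, -0.13, -0.10 and -0.10 without passing the test, with adjusted p between 0.0622 and 0.201. Srsf9 and Srsf10 passed the limma test without CARM1i replicate 3 or without WT replicate 3 (adjusted p = 0.0145 to 0.0372). Each of these libraries lay apart from its group on the third principal component, and without either of them 6 SR genes were called lower. Srsf5 had 9411, 9024 and 9032 in CARM1i libraries, which overlapped the WT libraries (-0.04 ± 0.03, adjusted p = 0.349).

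Hnrnpr had 2301, 2250.1 and 2156.6 in CARM1i and 2906, 2839 and 2744 in WT libraries, the largest fall of the family again (-0.34 ± 0.04, adjusted p = 1.42e-05). Hnrnph1 had 8951, 8072 and 7990.4 in CARM1i and 10313, 10398 and 9684 in WT libraries, with CARM1i replicate 1 the highest of its group (-0.28 ± 0.05, adjusted p = 0.000195). Hnrnpa2b1 had 9913, 9517 and 10419.5 in CARM1i and 12238, 11743 and 10729 in WT libraries, where the highest CARM1i library came close to the lowest WT library (-0.22 ± 0.04, adjusted p = 0.00157). The other 4 that fell were Hnrnpa0 (-0.18), Hnrnpab (-0.16), Hnrnpdl (-0.12) and Hnrnpl (-0.12), with adjusted p between 0.0166 and 0.0416. These 4 calls were fragile. All were lost without WT replicate 1, and likewise without WT replicate 2, which left 3 hnRNP genes in place of 7 called lower. The count was 5 without CARM1i replicate 1 (Hnrnpa0 and Hnrnpab lost), without CARM1i replicate 2 (Hnrnpab and Hnrnpdl lost) and without KO replicate 3 (Hnrnpdl and Hnrnpl lost), and 6 without KO replicate 1 (Hnrnpdl lost). It was also 5 when the KO libraries were left out of the limma fit, where Hnrnpdl and Hnrnpl had adjusted p = 0.0669 and 0.0547. Without CARM1i replicate 3 the count was again 7, with Hnrnpdl and Hnrnpl lost and Hnrnpf and Hnrnpu gained. In the main limma fit Hnrnpf and Hnrnpu had -0.10 ± 0.03 and -0.08 ± 0.03 (adjusted p = 0.0539 and 0.076). The count was 8, with Hnrnpf gained, by DESeq2 on the recovered reads (adjusted p = 0.0443) and by limma with a mean of at least 50 (adjusted p = 0.0456). Hnrnpa1 and Hnrnpd, which both fell in KO cells, had -0.03 ± 0.03 and -0.07 ± 0.05 in CARM1i cells (adjusted p = 0.668 and 0.324), and Hnrnpk had -0.06 ± 0.03 (adjusted p = 0.134).

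Hnrnpa3, a relative of Hnrnpa2b1, was the exception in CARM1i cells and is likewise described because its values were seen to stand out (ENSMUSG00000059005; chromosome 2, 75659261 to 75669407). It had 2737, 2761 and 2747.5 normalized counts in CARM1i, 2205.5, 2228 and 2347 in KO and 2498, 2343 and 2368 in WT libraries. The CARM1i libraries lay close together and above all others (0.19 ± 0.04 against WT, adjusted p = 0.00151; 0.28 ± 0.04 against KO, adjusted p = 2.99e-05). Relative to Hnrnpa2b1 it measured 0.266, 0.265 and 0.292 in KO, 0.276, 0.29 and 0.264 in CARM1i and 0.204, 0.2 and 0.221 in WT libraries. Both kinds of treated cells thus held a higher ratio than WT, which was not tested. In KO cells Hnrnpa2b1 fell (-0.49) and Hnrnpa3 was not called (-0.09), so the ratio there does not show a rise of Hnrnpa3. The ratio of Hnrnpa1 to Hnrnpa2b1 was likewise higher in every KO and CARM1i library than in every WT library. Hnrnpa3 has 35 annotated pseudogene copies (95% identity or more over at least 200 bases), the most of the 30 genes, and reads that match a copy equally well could have been lost or moved in the counting. Hnrnpa1 has 9 such copies, Hnrnpf 6 and Srsf3 3, and Hnrnpr, Hnrnph2 and Hnrnpa2b1 have 1 each. Of the members, 19 have none, Hnrnph1, Srsf1 and Srsf7 among them.

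**Figure D3:**
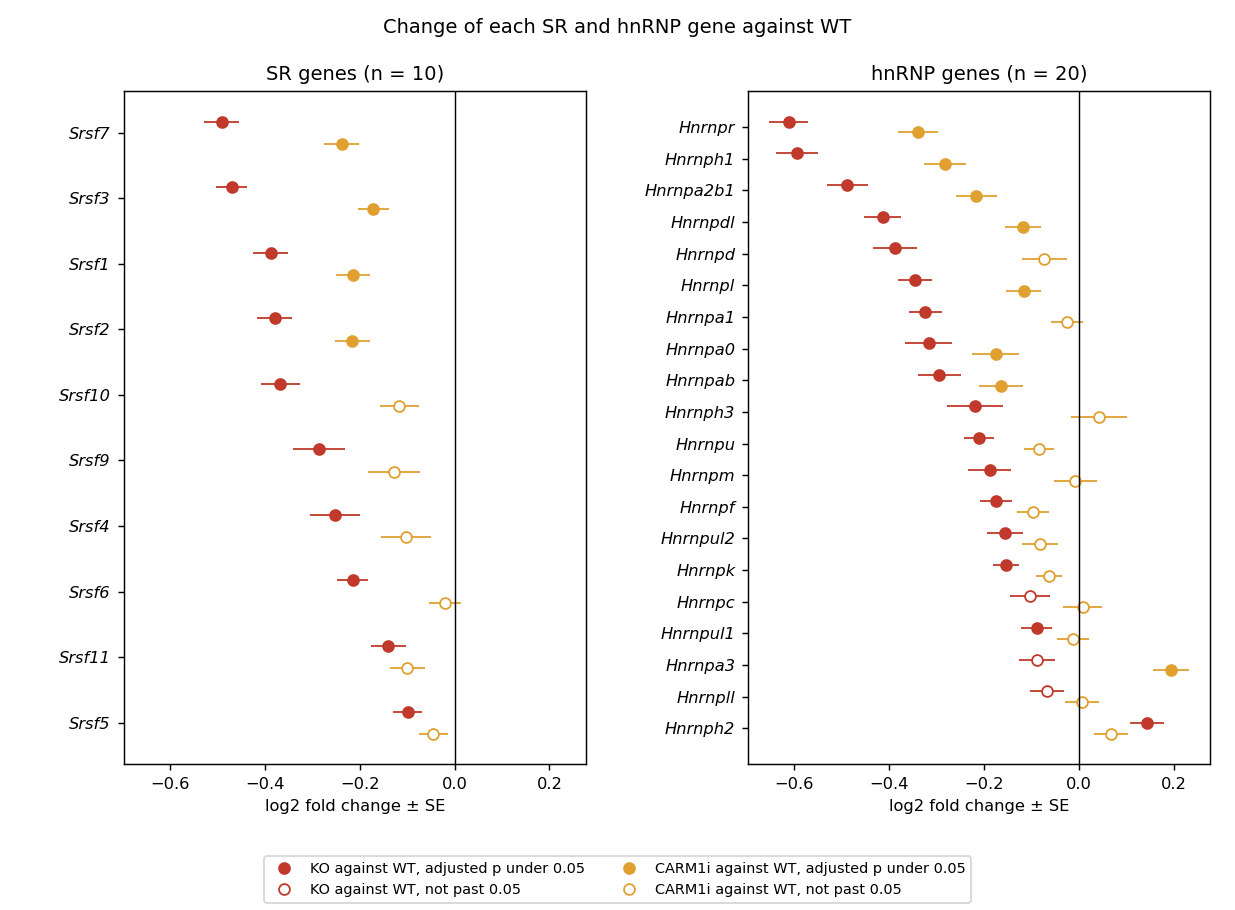
The horizontal axis is the log2 fold change of each gene against WT on the log2(value + 1) scale, with SE bars from the fit of all 9 libraries; red points are KO and orange points CARM1i, filled where the adjusted p was under 0.05. In KO the SR genes run from -0.49 to -0.10 and the hnRNP genes from -0.61 to 0.14, and the CARM1i points lie nearer to 0 for 29 of the 30 genes.

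The third comparison set CARM1i directly against KO cells, which tests whether the inhibitor group and the deletion group differ. Of the 30 genes, 22 were higher in CARM1i cells, 8 of 10 SR and 14 of 20 hnRNP genes, and 0 were lower by the limma test. The medians were 0.17 and 0.16, against -0.00 over all genes tested, of which 12.1% were called higher and 11.5% lower. Of the 7101 abundant genes, 16.8% were called higher. At an unadjusted p under 0.05 by limma, 26 of the 30 passed, 25 higher and 1, Hnrnph2, lower. Over all 14560 genes tested, 4986 had such a p, in either direction. On the recovered reads, edgeR and DESeq2 each called 0 members lower. The calls nearest the threshold depended on single libraries and, for Srsf4, on the method too. Srsf4 was lost with DESeq2 on the recovered reads (adjusted p = 0.0828), with no filter on low values (limma, adjusted p = 0.0532) and with only the CARM1i and KO libraries in the limma fit (adjusted p = 0.0627). It was also lost without any 1 library other than CARM1i replicate 2, and Srsf9 and Hnrnpab without any 1 KO library, CARM1i replicate 1 or 3 or WT replicate 2. Hnrnpa0 was lost without KO replicate 1 or 2, any 1 CARM1i library or WT replicate 2, and Hnrnpk without KO replicate 2 or 3 or CARM1i replicate 1. Hnrnpc was gained without CARM1i replicate 2. Without CARM1i replicate 3, 6 SR and 12 hnRNP genes were called higher. Over all alternatives the counts stayed between 6 and 8 for SR and between 11 and 14 for hnRNP genes.

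Srsf3 showed the largest difference of the SR genes, with 8597, 8427.6 and 8909 normalized counts in CARM1i and 7115, 6944 and 7011 in KO libraries (0.30 ± 0.03, adjusted p = 2.33e-06). Srsf7 followed, with 2651, 2611 and 2689.8 in CARM1i and 2177, 2293 and 2202.5 in KO libraries (0.25 ± 0.04, adjusted p = 5.57e-05). Srsf10 and Srsf6 were higher by 0.25 and 0.19, whereas Srsf5 (0.05) and Srsf11 (0.04) did not pass the test. Of the hnRNP genes, Hnrnpd had 1826, 1709 and 1743 in CARM1i and 1424, 1440.5 and 1376.5 in KO libraries with no overlap (0.32 ± 0.05, adjusted p = 7.9e-05). Hnrnph1 had 8951, 8072 and 7990.4 in CARM1i and 6536.6, 7104 and 6493 in KO libraries (0.31 ± 0.05, adjusted p = 5.37e-05). Hnrnpa1 had 14115, 13724.5 and 14456 in CARM1i and 11446, 11434.5 and 11516 in KO libraries (0.30 ± 0.03, adjusted p = 4.12e-06). The SR sum was 54474 ± 1359 in CARM1i cells, 91.1% of WT, and the hnRNP sum 155488 ± 2774, 93.8% of WT.

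For 12 of the 30 genes all KO libraries lay below all CARM1i libraries, which lay below all WT libraries, against 7.01% of all genes tested. They were Srsf1, Srsf2, Srsf3 and Srsf7 and, of the hnRNP genes, Hnrnpa0, Hnrnpa2b1, Hnrnpdl, Hnrnph1, Hnrnpk, Hnrnpl, Hnrnpr and Hnrnpu. The others lacked this order mostly because CARM1i and WT libraries overlapped, as for Hnrnpa1, Srsf6 and Srsf10.

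Per kilobase of exon, the WT levels of the 30 genes spanned from 4554 ± 212 normalized counts for Hnrnpa1 to 127 ± 3.68 for Hnrnpr (SD, n = 3). Hnrnpk (4131 ± 85.8) and Hnrnpab (4088 ± 327) came next and did not differ beyond their spread. Srsf2 (3004 ± 91.2) was the highest SR gene, close to Hnrnpf (2818.5 ± 122), and Srsf5 (2368 ± 53.1) the next SR gene. In KO cells Hnrnpk, at 3713 ± 16.2, was above Hnrnpa1, at 3636 ± 14.1, and Srsf5 (2211 ± 31.4) was close to Srsf2 (2309 ± 40.2). Lengths are those of all annotated exons together, which includes retained introns and long ends, so the level of genes such as Hnrnpr can be understated.

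The annotation shows what the gene counts pool. A transcript marked for nonsense-mediated decay is annotated for 9 of 10 SR genes (90.0%) and 10 of 20 hnRNP genes (50%), against 28.6% of 12468 tested coding genes. A retained intron transcript is annotated for 80.0%, 70.0% and 58.7%. The median number of annotated transcripts is 7.5, 8 and 5 in these sets, so the shares are not compared at equal numbers of transcripts. Counts per gene do not separate these forms from the coding ones. The members that fell most in KO cells differ in this: Srsf7 and Srsf3 have 1 and 2 transcripts of the decay type, Hnrnpr has 1 and Hnrnph1 has none. Of the 30 genes, 16 overlap another annotated gene, 7 of them a protein-coding one (Hnrnpab, Hnrnph3, Hnrnpk, Hnrnpm, Hnrnpu, Hnrnpul2 and Srsf2). The library kit was stranded, but the strand setting of the counting is not given in the sources used here, so reads of overlapping genes may not be told apart.

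The genes that act with both families were given by lists. Their counts stand against the all-gene shares of 20.5% called lower and 21.4% higher in KO cells, and 8.59% lower and 10.5% higher in CARM1i cells. Of 9 SR protein kinases, 3 fell and 1 rose in KO cells and 1 fell and 1 rose in CARM1i cells. The medians were -0.04 and -0.09, and with so few genes these counts are not far from those shares. Srpk2, a cytoplasmic kinase that readies SR proteins for import, rose in both, with 0.16 ± 0.03 in KO and 0.16 ± 0.03 in CARM1i cells (adjusted p = 0.00129 and 0.0027). Clk1, a nuclear kinase that releases SR proteins from speckles, fell in KO cells (-0.19 ± 0.05), and Prpf4b, a kinase of the spliceosome, fell in both (-0.32 in KO and -0.16 in CARM1i cells). Of the 3 transportins, Tnpo3, the import receptor of SR proteins, fell in both (-0.18 and -0.12), Tnpo2 rose in KO cells (0.09), and Tnpo1, the import receptor of Hnrnpa1, had -0.06 ± 0.03 and -0.04 ± 0.03 without passing the test.

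Of 23 SR-related and Tra2 genes, 12 fell in KO cells, with a median of -0.10, and in CARM1i cells 5 fell and 2 rose, against 8.59% lower and 10.5% higher over all genes. The 2 that rose are near that share. Tra2b, an enhancer-binding partner of SR proteins, had -0.32 in KO and -0.18 in CARM1i cells, and Rbm39, a cofactor of U2AF, -0.27 and -0.15. Of 20 other hnRNP-type genes, 13 fell in KO and 7 in CARM1i cells, with medians of -0.20 and -0.06. Rbmx, the X-linked hnRNP G, had 679 ± 6.7 normalized counts in KO, 888 ± 61.7 in CARM1i and 1119 ± 26.5 in WT cells, in KO cells a larger fall than that of any member (-0.72 ± 0.06 in KO, adjusted p = 8.39e-09; -0.34 ± 0.06 in CARM1i, adjusted p = 0.000298). Syncrip, the closest relative of Hnrnpr, had -0.33 and -0.12. Cirbp, a cold-inducible RNA-binding protein, fell in KO cells (-0.42) and had -0.03 in CARM1i cells without passing the test, and the difference between them was called (0.39 ± 0.04, adjusted p = 1.75e-06).

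Of 13 tissue-type splicing regulators, 8 fell in KO and 2 in CARM1i cells, against 20.5% and 8.59% of all genes tested and 26.2% and 11.5% of the abundant genes. The 2 of 13 in CARM1i cells are close to the share of abundant genes. Mbnl1, which promotes splicing patterns of differentiated tissue, had -0.15 and -0.15. Of 42 core spliceosome genes, 23 fell in KO and 11 in CARM1i cells, with medians of -0.15 and -0.07. Sf3b1, the branch site component of the U2 particle, had -0.20 ± 0.03 in KO and -0.20 ± 0.03 in CARM1i cells, nearly the same size in both, while the Sm protein gene Snrpe had -0.38 and -0.16. Of 16 genes of nonsense-mediated decay and the exon junction complex, 11 fell and 2 rose in KO cells and 4 fell and 1 rose in CARM1i cells, where the counts that rose are no higher than the all-gene shares. Magohb, a core subunit of that complex, had -0.54 ± 0.08 and -0.36 ± 0.08, and the decay factor Smg5 had -0.28 and -0.10. In KO cells the medians of the SR and of the hnRNP genes lay further below 0 than that of each list but the proliferation markers, a description that was not tested. The hnRNP median there, -0.22, was close to the -0.20 of the other hnRNP-type genes. In CARM1i cells the hnRNP median, -0.078, lay nearer to 0 than those of the SR protein kinases (-0.088) and of the decay and exon junction genes (-0.084).

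**Figure D4:**
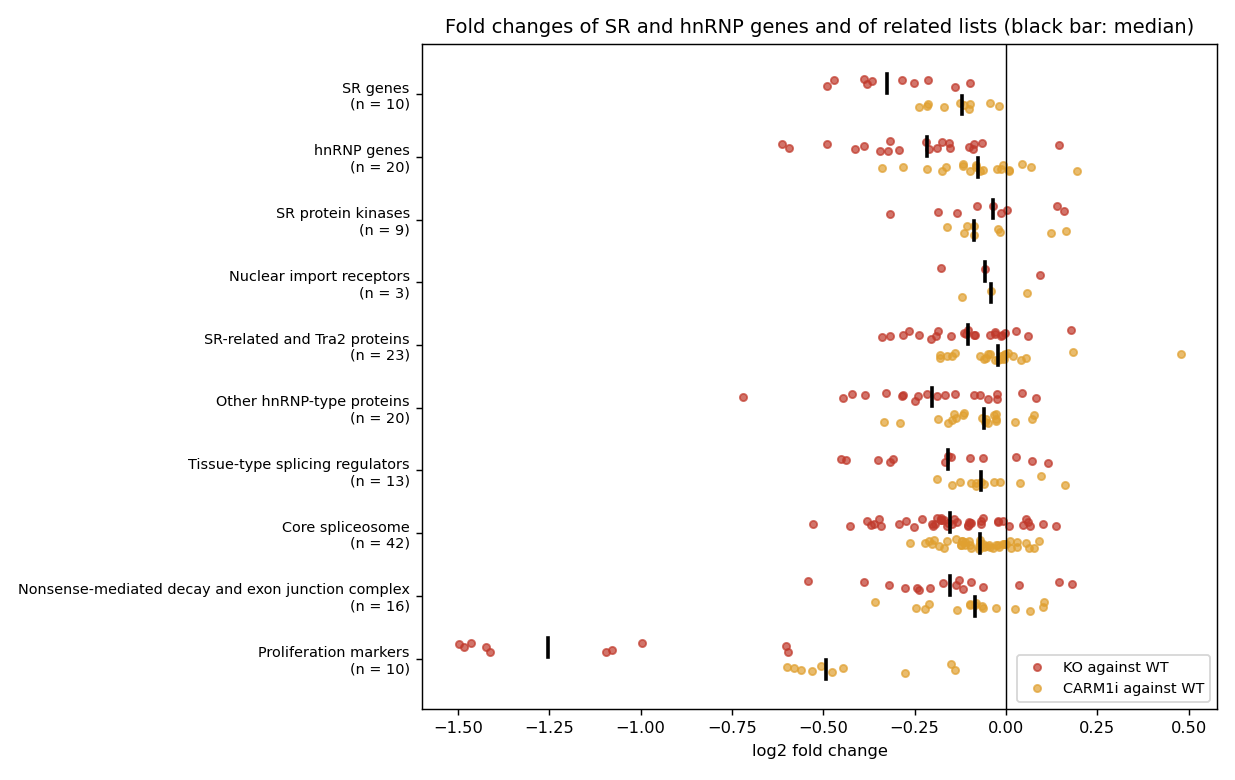
Each point is 1 gene, and the horizontal axis is its log2 fold change against WT, red for KO and orange for CARM1i, with a black bar at the median of the list. The SR genes (medians -0.33 in KO and -0.12 in CARM1i) lie further below 0 than the core spliceosome list (-0.15 and -0.07), and the proliferation markers (-1.25 and -0.49) lie furthest.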

How the data were processed

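RNA of 9 libraries was measured with a stranded poly(A) kit, per the labels' protocols. Per the submitters' processing notes, reads were handled with TopHat2 2.0.10, HTSeq 0.6.0, DESeq 1.18.0 and mm10. Which annotation was used, and whether counting used strand, is not given in the sources used here. Per gene, the authors deposited a normalized signal, read counts divided by size factors, covering 16428 genes. Divided by the value of 1 read, 100% of the entries came out whole in each library (tolerance 1e-06). In KO replicate 2 that step, 1.01, is close to 1, but values such as 605.85 for Hnrnph3 were not whole before the division. Multiplying back gave the recovered reads.

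Gene IDs were matched to GENCODE M21, 16413 without their version and 15 not at all. Genes with a mean under 10 were dropped, leaving 14560. The 9 libraries were fitted together by limma 3.58.1 (R 4.3.3) with trend on log2(value + 1), the test laid down for normalized values, with Benjamini-Hochberg adjustment over the genes tested. Fold changes on this scale understate those of low genes. The script was tested on simulated data. Promoters came from RefSeq (GRCm38.p6) and pseudogene copies from BLAST+ 2.17.0.

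The members and lists were chosen with earlier results of these data known. Library values are given for the members of each family with the 3 largest called changes in KO and in CARM1i against WT, the 2 largest in CARM1i against KO and the 2 highest levels per kilobase, plus Hnrnph2 and Hnrnpa3, chosen after their values were seen. From each pathway list, the 3 genes with the smallest adjusted p in KO and the 2 in CARM1i against WT could be named. Whether replicates were separate cultures is not labelled. P-values therefore reflect the spread among libraries, possibly a technical one. Deviations of same-numbered libraries correlated at -0.087 to 0.0268, so replicate numbers were treated as names. Those of differently numbered libraries of different groups correlated at -0.037 to 0.074, highest for CARM1i replicate 3 with WT replicate 1. Replicates differed by more than counting noise (chi-square of 2.47 to 8.47 per gene). Alternatives were other filters, DESeq2 1.42.0 or edgeR 4.0.16 on recovered reads, a common total, a pseudocount of 10, only the compared groups, the replicate block and leaving out each library.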

Additional observations from a re-analysis of the deposited data

How the results depend on the processing

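No result reversed. Of 1530 values of single members under the alternatives, 1432 kept direction and call, 63 lost the call, 23 gained it and 12 changed the sign of a value that was not called. Rescaling to a common total moved the medians to -0.34 (SR) and -0.23 (hnRNP) in KO and to -0.094 (hnRNP) in CARM1i against WT, and edgeR on recovered reads moved the SR median in KO to -0.33 (-0.3308, against -0.3262 by limma); the scaling shifted the median of all genes to -0.02. With 1 library left out, the SR median in KO against WT ran from -0.37 (without WT replicate 3) to -0.28 (without WT replicate 1), the hnRNP median from -0.24 to -0.20, and the hnRNP median in CARM1i against WT from -0.10 to -0.056. The number of hnRNP genes lower in CARM1i against WT ran from 3 to 10, with 3 without WT replicate 1 or 2, 5 with only the CARM1i and WT libraries in the fit, 9 without WT replicate 3 and 10 when rescaled to a common total, and the cause was not tested. The SR count there ran from 4 to 6, with 6 when rescaled and without CARM1i replicate 3 or WT replicate 3. In KO against WT the SR count ran from 9 to 10 and the hnRNP count from 15 to 18 over all alternatives. With the replicate block the counts lower were 10 and 15 in KO and 4 and 7 in CARM1i against WT, and 6 SR and 12 hnRNP genes were higher in CARM1i against KO; the calls lost were Hnrnpul1 in KO (adjusted p = 0.052) and Srsf4, Srsf9, Hnrnpa0 and Hnrnpab in CARM1i against KO. With 3 libraries a group, small changes such as those of Hnrnpc, Hnrnpll and Srsf5 lie near the limit of what these data resolve, and gene counts cannot show which transcript forms changed.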
